A study of Mus musculus with 12 samples.

Results

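Acyl-CoA thioesterases of the Acot1 gene cluster and fat oxidation genes under the control of PPAR-alpha were followed across skin from 4 groups of mice. The 9 genes (Acot1, Acot2, Acot3, Acot4, Pdk4, Cpt1a, Acadm, Ehhadh and Ppara) were taken by symbol from the 55453 genes of the count table, and all 9 had enough counts to be tested. The set was chosen by the earlier values of Acot1 in bleomycin-treated KO against bleomycin-treated WT skin. Values of any of the 9 genes in that comparison are therefore a description without a test, as are those of Acot1 in every comparison that used the WT BLM or KO BLM mice. KO PBS against WT PBS skin shares no mouse with that comparison, and all 9 genes were tested there. The members were listed with earlier results of these data known, so no test of them is fully independent of the choice.

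The groups were PBS-injected and bleomycin-injected mice of both genotypes (WT PBS, KO PBS, WT BLM, KO BLM), with 3 mice each. WT mice carried the intact Thy1 gene and KO mice lacked Thy-1 (Thy1-knockout in the labels). All were on the C57BL/6 background, and the study's methods give female KO mice aged 8 to 12 weeks and littermate controls. Daily s.c. injections of PBS or of bleomycin, a drug that causes fibrosis at the injection site, were given for up to 14 days in dorsal skin at 10 mg/kg/day of bleomycin, and skin was harvested on day 21.

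Fatty acids are burned only after they have been joined to coenzyme A. CPT1A loads the resulting acyl-CoA onto carnitine for entry into mitochondria, ACADM and EHHADH carry out steps of beta-oxidation in mitochondria and peroxisomes, and the ACOT enzymes split acyl-CoA back into free fatty acid and coenzyme A. PPAR-alpha is a nuclear receptor that is activated by fatty acids and, paired with RXR, turns on many of these genes in liver, heart and muscle. PDK4 inactivates pyruvate dehydrogenase and so spares glucose when fat is burned. In skin these genes are active in sebaceous glands, epidermis, dermal fat and the thin muscle beneath, and in a bulk sample fewer cells of a type and less RNA per cell cannot be told apart.

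The 12 libraries held 26473700 to 38890450 counts (median 31494965), and 18311 genes were tested. Markers of epidermal keratinocytes and of fibroblasts had counts in every mouse. Reads on Thy1 were counted in all mice, at a mean of 73.3 ± 25.9 CPM (SD, n = 3) in KO PBS against 123 ± 23.7 in WT PBS, and 103 ± 22.4 in KO BLM against 332 ± 93.8 in WT BLM skin (CPM, counts scaled to a common normalized library total), and counts per gene do not show which part of Thy1 they came from. Libraries stood apart within both KO groups by 19 markers of growing hair. The summed level of these markers was 49436 to 71604 CPM in WT PBS and 39.5 to 842 CPM in WT BLM mice. KO PBS mouse 136 had 78717 CPM against 38.8 CPM in mouse 137 and 212 CPM in mouse 139. KO BLM mouse 141 had 37776 CPM against 3657 CPM in mouse 143 and 6197 CPM in mouse 144. Results are therefore given with and without mice 136 and 141 where they depended on them, and the part of the hair cycle in any result was not tested.

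Acot1 lies on chr12:84009490-84018371 (GRCm38, GENCODE M21, plus strand), with Acot2 at chr12:83987861-83993873, Acot4 at chr12:84038379-84048601 and Acot3 at chr12:84052144-84060402, all on the same strand. Pdk4 lies on chr6:5483351-5496309, Acadm on chr3:153922357-153944632 and Ehhadh on chr16:21761287-21787807 (all minus strand), and Cpt1a on chr19:3322334-3385733 and Ppara on chr15:85734983-85802819 (plus strand). Acot1 and Acot2 are near copies, which bears on how a read is assigned. Over the 1257 coding bases of Acot1, 94.83% were identical to Acot2, and the longest identical run was 273 bases. Of the 50-base windows in the annotated transcripts, 13.56% of those of Acot1 and 24.55% of those of Acot2 also occurred in the other gene. Of those of Acot3 and Acot4, 7.566% and 4.168% occurred in any other gene from Acot1 to Acot6. A stretch of 300 coding bases of exon 3 is printed for both genes to show how few letters separate them (chr12:84016780-84017079 for Acot1 and chr12:83992502-83992801 for Acot2, plus strand, GENCODE M21, GRCm38), with the 14 differing bases in capitals.
Acot1: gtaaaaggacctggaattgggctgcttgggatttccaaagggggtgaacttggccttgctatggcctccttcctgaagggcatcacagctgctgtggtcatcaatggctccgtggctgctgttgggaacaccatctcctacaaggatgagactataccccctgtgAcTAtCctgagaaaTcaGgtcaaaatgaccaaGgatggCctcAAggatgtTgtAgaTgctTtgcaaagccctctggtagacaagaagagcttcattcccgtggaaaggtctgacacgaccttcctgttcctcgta
Acot2: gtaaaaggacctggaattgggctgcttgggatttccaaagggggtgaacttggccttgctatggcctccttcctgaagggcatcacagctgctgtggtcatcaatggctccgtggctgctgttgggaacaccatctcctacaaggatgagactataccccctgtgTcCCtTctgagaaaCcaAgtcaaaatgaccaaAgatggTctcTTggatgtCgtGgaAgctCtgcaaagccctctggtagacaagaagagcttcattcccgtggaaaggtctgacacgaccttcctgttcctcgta
Values of Acot1 and Acot2 are uncertain to the extent that reads from such stretches were shared, discarded or assigned at random. The antisense gene 4732463B04Rik starts 44.3 kb from the start of Acot1, within the bounds of Acot3. Use of strand in counting was not given in the sources used here.

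The 250 bases before the RefSeq start (GRCm38.p6, plus strand) are printed for Acot1, which chose the set, and for Acot2, its nearest copy. They are also printed for Acot4 and Cpt1a, which were called in WT BLM against WT PBS skin. They span chr12:84009252-84009501 for Acot1, chr12:83987611-83987860 for Acot2, chr12:84038129-84038378 for Acot4 and chr19:3323051-3323300 for Cpt1a, where the window lies inside the GENCODE gene. Capitals mark AGGTCA or its reverse complement TGACCT, the half-site that nuclear receptors such as PPAR-alpha with RXR recognize as a repeat.
Acot1: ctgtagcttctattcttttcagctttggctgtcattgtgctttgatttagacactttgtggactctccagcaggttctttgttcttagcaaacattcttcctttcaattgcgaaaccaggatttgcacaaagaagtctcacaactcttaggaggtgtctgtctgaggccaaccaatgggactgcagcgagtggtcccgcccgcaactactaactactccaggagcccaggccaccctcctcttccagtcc
Acot2: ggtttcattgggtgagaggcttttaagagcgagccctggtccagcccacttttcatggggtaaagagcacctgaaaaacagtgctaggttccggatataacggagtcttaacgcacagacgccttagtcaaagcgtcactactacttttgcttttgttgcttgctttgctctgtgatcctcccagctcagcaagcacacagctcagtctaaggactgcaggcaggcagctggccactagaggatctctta
Acot4: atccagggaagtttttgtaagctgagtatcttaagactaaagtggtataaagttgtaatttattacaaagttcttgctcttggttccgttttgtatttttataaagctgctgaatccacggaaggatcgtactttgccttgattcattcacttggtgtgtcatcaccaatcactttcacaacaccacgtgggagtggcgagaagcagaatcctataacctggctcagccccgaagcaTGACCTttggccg
Cpt1a: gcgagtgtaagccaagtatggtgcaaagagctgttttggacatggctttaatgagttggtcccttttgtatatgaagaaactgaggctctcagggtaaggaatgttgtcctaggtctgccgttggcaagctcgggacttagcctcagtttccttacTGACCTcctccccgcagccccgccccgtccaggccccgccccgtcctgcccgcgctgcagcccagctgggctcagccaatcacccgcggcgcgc
The half-site was found on either strand in 16.3% of 32851 RefSeq promoter windows of 300 bases (250 before and 50 after the start). Among the 9 genes it was found in the windows of Acot3, Acot4, Cpt1a and Acadm, once in each window. The repeat AGGTCANAGGTCA was found in 0.0396% of all windows and in none of those of the 9 genes. A match is a description of letters, and its absence says nothing about binding outside this window.

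Per kb of exon, Acadm was the most abundant of the set, with a median over the 12 mice of 24.9 CPM per kb. Cpt1a followed at 17.0, Pdk4 at 13.8 and Acot1 at 13.4 CPM per kb, with overlapping ranges from mouse to mouse. Acot2 had a median of 4.30, Ehhadh 2.97, Ppara 1.23 and Acot4 0.413 CPM per kb, and each overlapped its neighbour in this order. Acot3 was the lowest, between 0 and 0.134 CPM per kb, below every value of Acot4.

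**Figure D1:**
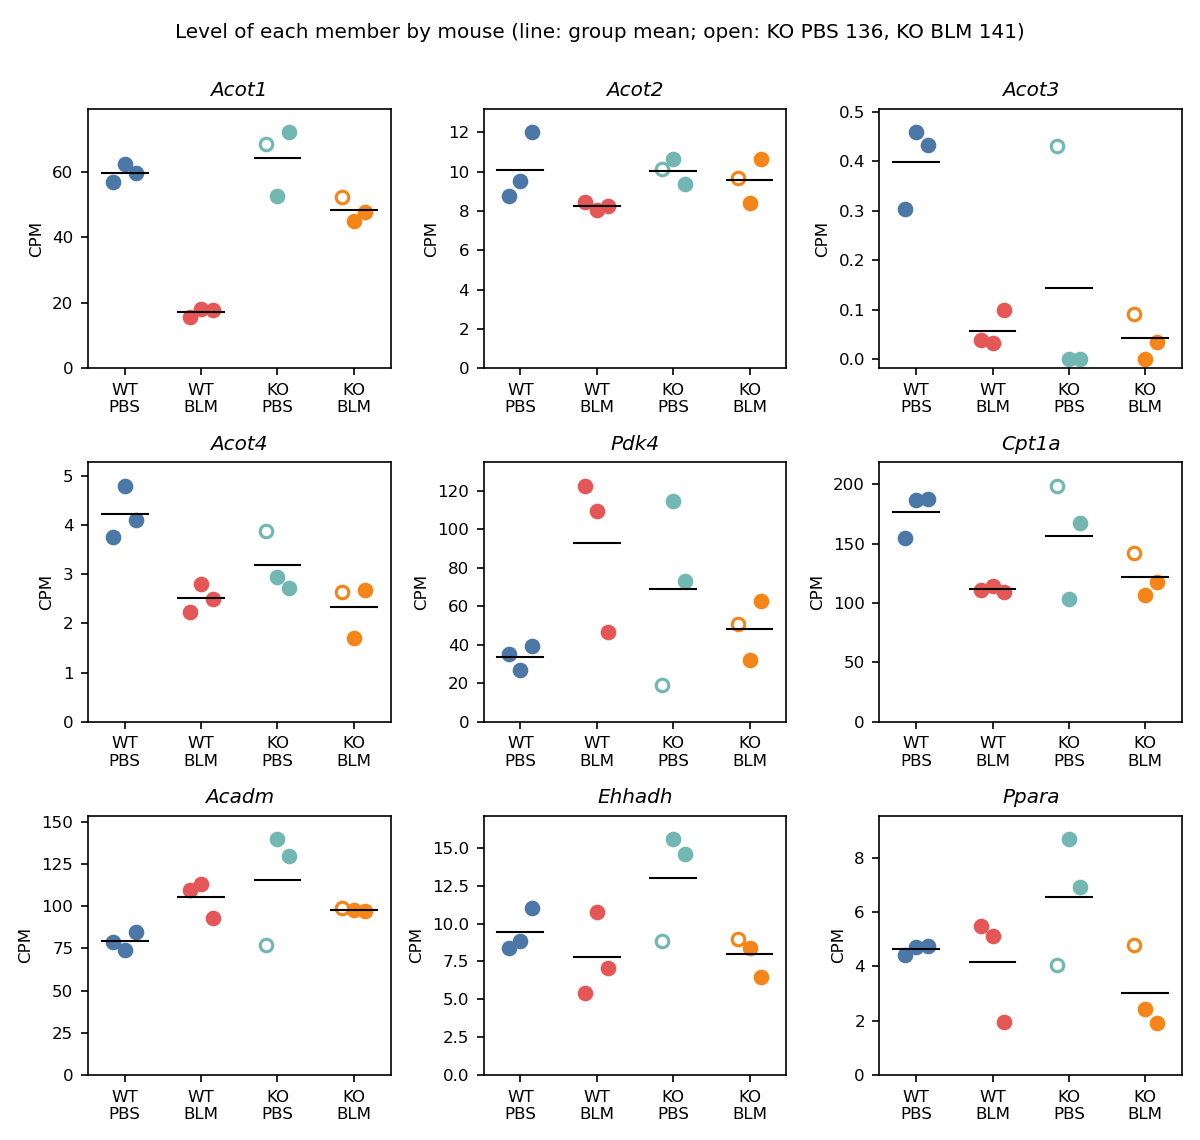
Level of each of the 9 genes in CPM (linear axis) by group, 1 point a mouse, with a line at the mean of 3 mice and open points for KO PBS mouse 136 and KO BLM mouse 141. The 3 WT BLM mice have 15.7 to 18.0 CPM of Acot1, and the other 9 mice have 45.1 to 72.1 CPM.

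Acot1, which encodes the cytosolic long-chain acyl-CoA thioesterase, was low in WT BLM skin alone among the 4 groups. The level was 56.8, 62.5 and 59.8 CPM in the WT PBS mice and 15.7, 18.0 and 17.9 CPM in the WT BLM mice. It was 68.4, 52.7 and 72.1 CPM in the KO PBS mice and 52.4, 45.1 and 47.8 CPM in the KO BLM mice. The 3 WT BLM mice lay below all others, and the KO BLM mice lay just below the KO PBS mice without overlap.

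KO PBS against WT PBS skin shares no mouse with the comparison that chose the set. Acot1 had a log2 fold change of 0.11 there (SE 0.13, 95% interval -0.18 to 0.40) and was not called (edgeR quasi-likelihood test, adjusted p = 0.613). The interval leaves room for a difference of up to 0.40 on the log2 scale. The following Acot1 values are descriptions. Acot1 was lower by a log2 fold change of -1.80 (SE 0.13, 95% interval -2.09 to -1.50) in WT BLM than in WT PBS skin. The corresponding value in KO BLM against KO PBS skin was -0.41 (SE 0.13, 95% interval -0.70 to -0.12). KO BLM skin held 2.82 times the level of WT BLM skin, a log2 fold change of 1.49 (SE 0.13, 95% interval 1.20 to 1.79), from 48.4 ± 3.72 against 17.2 ± 1.29 CPM (SD, n = 3). The responses of the genotypes to bleomycin differed by 1.38 on the log2 scale (SE 0.18, 95% interval 0.98 to 1.79).

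Marker sums also differed between groups, and their part in the level of Acot1 was not tested. Sebaceous gland markers summed to 1120 to 2332 CPM in WT BLM and 2504 to 3656 CPM in KO BLM mice, without overlap. WT PBS mice had 2042 to 2404 CPM, which overlapped the WT BLM mice, and KO PBS mice had 2061 to 5005 CPM. Hair marker sums were lower in all WT BLM than in all KO BLM mice, and they were 38.8 and 212 CPM in KO PBS mice 137 and 139, which had 52.7 and 72.1 CPM of Acot1. Without mice 136 and 141, the log2 fold change of Acot1 in KO PBS against WT PBS skin was 0.06 (edgeR, adjusted p = 0.733), and that in KO BLM against WT BLM skin was 1.43.

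Acot2, which encodes the mitochondrial counterpart of ACOT1, differed little between groups. Its level was 8.76, 9.54 and 12 CPM in the WT PBS mice and 8.46, 8.05 and 8.27 CPM in the WT BLM mice. KO mice had 10.1, 10.6 and 9.36 CPM after PBS and 9.67, 8.40 and 10.6 CPM after bleomycin. The WT BLM mice were below the WT PBS mice without overlap, with a log2 fold change of -0.29 (SE 0.16) that was not called (edgeR, adjusted p = 0.167). Within each mouse, the level of Acot1 per kb was 1.04 to 1.25 times that of Acot2 in WT BLM skin. The ratio was 2.79 to 3.67 in WT PBS, 2.78 to 4.32 in KO PBS and 2.52 to 3.04 in KO BLM skin. These ratios use the Acot1 values that chose the set and are a description. With the counts of Acot1 and Acot2 summed into 1 gene, the log2 fold change was -1.46 in WT BLM against WT PBS and 1.19 in KO BLM against WT BLM skin.

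Acot4, which encodes a peroxisomal thioesterase for dicarboxylic acyl-CoAs, fell with bleomycin in WT skin. The level was 3.75, 4.80 and 4.10 CPM in WT PBS and 2.23, 2.80 and 2.49 CPM in WT BLM mice, without overlap. The log2 fold change was -0.75 (SE 0.24, edgeR, adjusted p = 0.0375). In KO mice the level was 3.89, 2.94 and 2.71 CPM after PBS and 2.63, 1.71 and 2.69 CPM after bleomycin, a log2 fold change of -0.44 (SE 0.24) that was not called (edgeR, adjusted p = 0.323). The adjusted p of Acot4 in WT skin rose to between 0.0602 and 0.0991 without each of the 6 WT mice in turn.

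Acot3, which encodes another peroxisomal thioesterase, passed the filter on low counts only through the WT PBS mice. It had 9, 14 and 17 counts in WT PBS and 1, 1 and 3 counts in WT BLM mice. A gene kept through its highest group had to differ, so no fold change or test of Acot3 is read here. KO PBS mouse 136 had 13 counts and mice 137 and 139 had 0. KO BLM mice 141, 143 and 144 had 3, 0 and 1 counts. Acot3 thus had more than 3 counts only in the 4 mice with the highest sums of hair markers.

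Cpt1a, which encodes the entry enzyme of mitochondrial fat oxidation, fell with bleomycin in WT skin from 155, 187 and 187 CPM to 111, 115 and 109 CPM. The WT groups did not overlap, and the log2 fold change was -0.66 (SE 0.21, edgeR, adjusted p = 0.0368). KO PBS mice had 199, 103 and 167 CPM and KO BLM mice had 142, 107 and 117 CPM. These groups overlapped, with a log2 fold change of -0.36 (SE 0.21, edgeR, adjusted p = 0.353). Without each WT mouse in turn, the adjusted p of Cpt1a in WT skin lay between 0.0528 and 0.0931. Markers were also called between the WT groups, beside 34.0% of all genes. Hair had 9 of 19 lower and sebaceous glands 3 of 10 lower. Muscle had 9 of 10 higher, macrophages 5 of 5 higher and fibroblasts 3 of 5 higher. The sebaceous share is near that of all genes, and the sebaceous sums of the WT groups overlapped. The part of these markers in the Acot4 and Cpt1a values was not tested.

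Pdk4 and Acadm had higher levels in WT BLM than in WT PBS skin, with no overlap and no call by edgeR. Pdk4 was at 35.0, 26.9 and 39.1 CPM in WT PBS and 123, 110 and 46.6 CPM in WT BLM mice, a log2 fold change of 1.47 (SE 0.56, edgeR, adjusted p = 0.0647), which DESeq2 called (adjusted p = 0.0300). In KO PBS skin mouse 136 had 18.9 CPM of Pdk4 against 114 and 73.1 CPM in mice 137 and 139, and the KO BLM mice had 50.6, 31.9 and 62.5 CPM. Acadm, which encodes medium-chain acyl-CoA dehydrogenase, was at 78.6, 74.2 and 84.7 CPM in WT PBS and 110, 113 and 93.3 CPM in WT BLM mice, a log2 fold change of 0.41 (SE 0.19, edgeR, adjusted p = 0.108). KO PBS mouse 136 had 77.3 CPM of Acadm against 140 and 130 CPM in mice 137 and 139, while the KO BLM mice lay between 97.4 and 98.7 CPM.

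Skeletal muscle markers moved with both genes. Their sum over 10 markers was 5388 to 5924 CPM in WT PBS, 18030 to 37274 CPM in WT BLM and 10319 to 19742 CPM in KO BLM mice. KO PBS mouse 136 had 6733 CPM of muscle markers against 27392 and 24435 CPM in mice 137 and 139. The 4 mice with the most Pdk4 (WT BLM 145 and 146, KO PBS 137 and 139) were also the 4 with the most Acadm and the highest muscle sums, and the part of muscle content in the Pdk4 and Acadm levels was not tested.

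**Figure D2:**
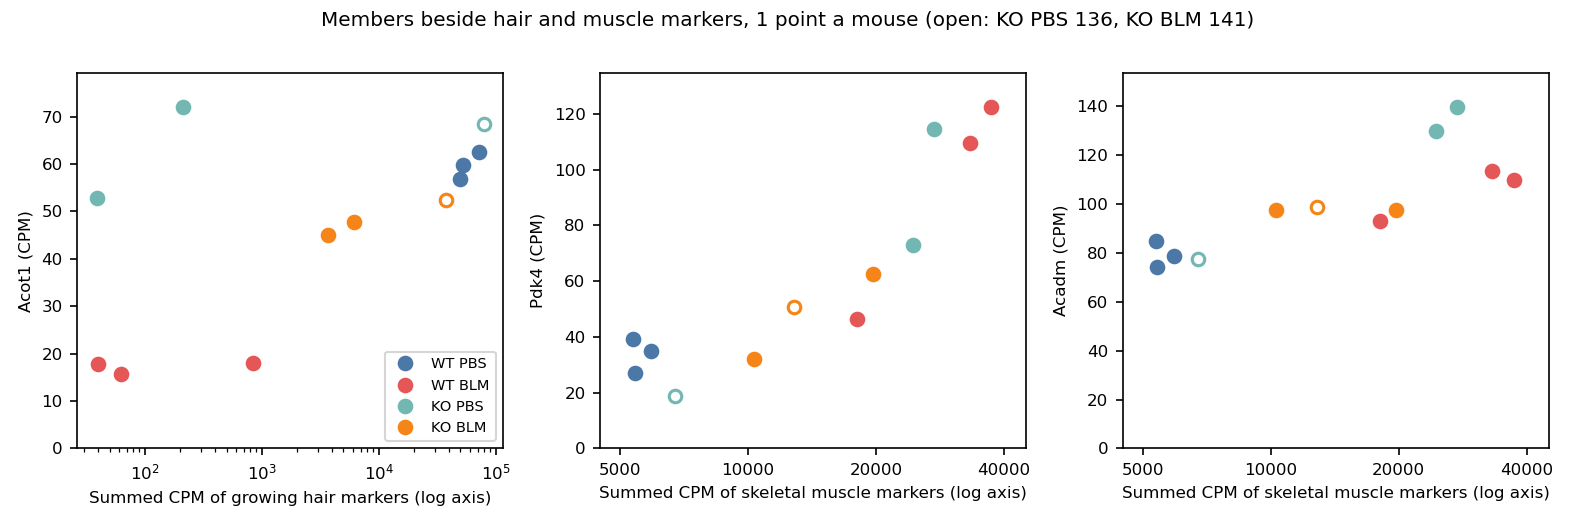
Level of Acot1, Pdk4 and Acadm in CPM against the summed CPM of growing hair or skeletal muscle markers (log axis), 1 point a mouse, with open points for KO PBS mouse 136 and KO BLM mouse 141. KO PBS mice 137 and 139 have 38.8 and 212 CPM of hair markers and 52.7 and 72.1 CPM of Acot1, and Pdk4 is highest where muscle markers are highest.

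Ehhadh, which encodes a bifunctional enzyme of peroxisomal beta-oxidation, was at 8.39, 8.85 and 11 CPM in WT PBS and 5.44, 10.8 and 7.05 CPM in WT BLM mice. KO PBS mice had 8.84, 15.6 and 14.6 CPM and KO BLM mice had 9.0, 8.40 and 6.50 CPM. Both pairs of groups overlapped, and neither log2 fold change with bleomycin was called (-0.28 in WT skin, edgeR adjusted p = 0.463, and -0.71 in KO skin, edgeR adjusted p = 0.210).

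Ppara itself, the receptor gene, was at 4.43, 4.70 and 4.74 CPM in WT PBS and 5.48, 5.12 and 1.94 CPM in WT BLM mice. The log2 fold change was -0.15 (SE 0.44, 95% interval -1.13 to 0.83, edgeR, adjusted p = 0.815). KO PBS mice had 4.06, 8.69 and 6.91 CPM and KO BLM mice had 4.77, 2.42 and 1.91 CPM, an overlapping pair of groups with a log2 fold change of -1.11 (SE 0.45, edgeR, adjusted p = 0.209).

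**Figure D3:**
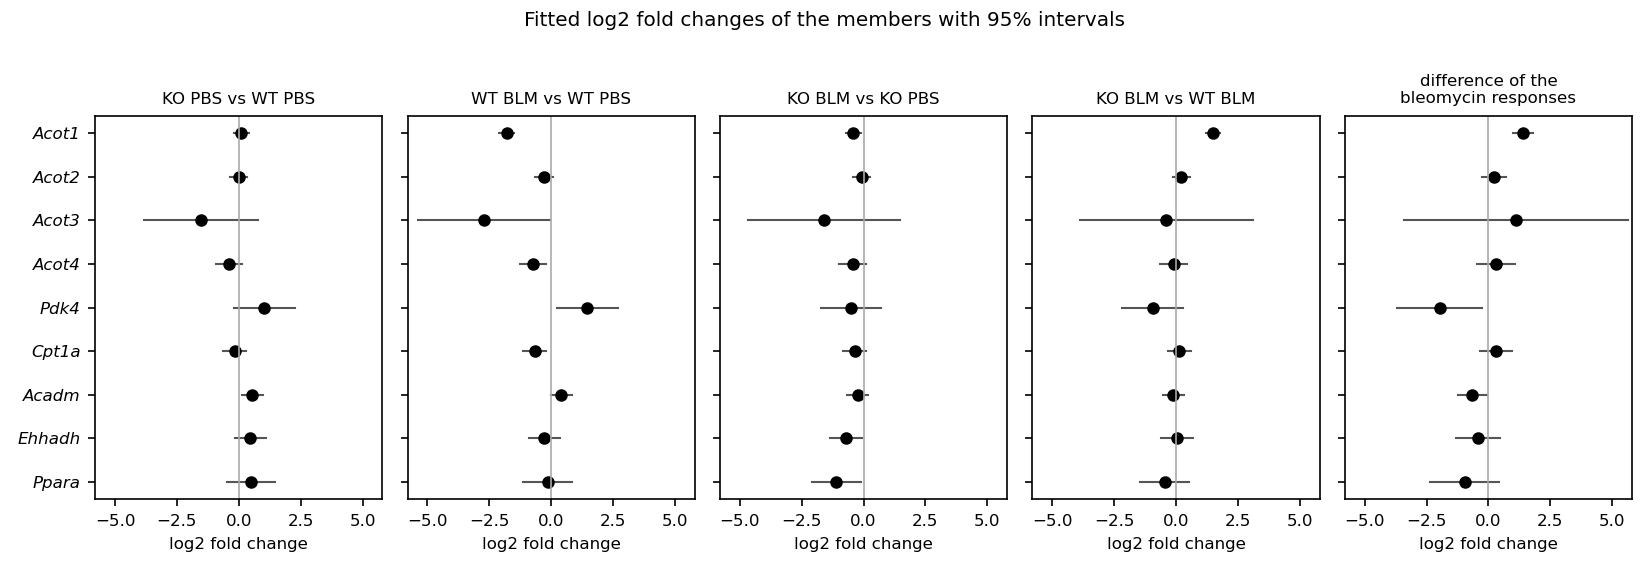
Fitted log2 fold changes of the 9 genes (points) with 95% intervals (lines) in the 4 comparisons between groups and in the difference of the bleomycin responses. Acot1 is at -1.80 in WT BLM against WT PBS and at 1.49 in KO BLM against WT BLM skin, while the interval of Acot3 spans several log2 units in each panel.

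Counted over the set, KO PBS against WT PBS skin gave 0 of 9 calls by edgeR's quasi-likelihood test and 0 by DESeq2, where 0.0655% of all tested genes were called by edgeR. At an unadjusted p under 0.05 there was 1 of 9 genes, against 20.4% of all genes. It was Acadm, with a log2 fold change of 0.55 (SE 0.19, edgeR, adjusted p = 0.207). None of the 9 genes had groups without overlap, against 18.9% of all genes. The median log2 fold change of the 9 genes was 0.11, and that of all genes 0.02. This count rested on mouse 136. Without it, Pdk4 was called at 1.48 (edgeR, adjusted p = 0.0176) and Acadm at 0.77 (edgeR, adjusted p = 0.00139), while 36.7% of all tested genes were called. Acot3 also passed, which brings the count to 3 of 9, but from 0 counts in both remaining KO PBS mice and after a filter that its WT PBS counts alone had met, so nothing is read from it. The count was also 3 without mice 136 and 141 together, where 40.9% of all genes were called. KO PBS mice 137 and 139 differed from the WT PBS mice in several marker sums, whose part was not tested. They carried more muscle and fewer hair markers than any WT PBS mouse. Adipocyte markers summed to 3360 and 4236 CPM in them against 1328 to 1845 CPM in WT PBS mice. Sebaceous gland markers summed to 4528 and 5005 CPM against 2042 to 2404 CPM, and macrophage markers to 1098 and 987 CPM against 248.7 to 495 CPM.

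WT BLM against WT PBS skin gave 3 of 9 calls, all lower (Acot1, on which the choice of genes bears, Acot4 and Cpt1a), beside 34.0% of all genes called. DESeq2 called 4, with Pdk4 added. Without overlap were 7 of 9 genes, Acot1 and Acot3 among them, against 57.0% of all genes. The median log2 fold change was -0.29 for the 9 genes and 0.02 for all genes. Leaving out any 1 of the 6 WT mice left 1 call. Without KO PBS mouse 136 the count was 6 (2 higher and 4 lower, Acot1 and Acot3 among the lower), beside 45.7% of all genes, and it was 5 with only the WT groups in the model. Shares of all genes are not given here for the fits without a WT mouse or with only the WT groups. Nothing is read from those counts.

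KO BLM against KO PBS skin gave 0 of 9 calls by edgeR and 1 by DESeq2 (Acot1), where edgeR called 0.306% of all genes. At an unadjusted p under 0.05 were 3 of 9 genes (Acot1, Ehhadh and Ppara), against 20% of all genes. Nothing is read from Acot1 in these counts, because it chose the set. Without overlap were 2 of 9 genes (Acot1 and Acot4), against 19.3% of all genes. The median log2 fold change was -0.44, and that of all genes -0.01. Without mouse 136, where 14% of all genes were called, there were 2 calls, both lower, namely Acadm at -0.46 (edgeR, adjusted p = 0.0261) and Ehhadh at -0.92 (edgeR, adjusted p = 0.0474). Without mice 136 and 141 there were 3, beside 22.3% of all genes, with Ppara added at -1.85 (edgeR, adjusted p = 0.0212).

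In KO BLM against WT BLM skin, the comparison that chose the set, 1 of 9 genes (Acot1) passed the call and 1 of 9 was without overlap. All tested genes gave 0.0928% and 27.5%, and nothing is read from these counts. The other 8 genes had log2 fold changes between -0.94 (Pdk4) and 0.21 (Acot2). When the bleomycin response of KO skin was set against that of WT skin, 0 of 9 genes were called by edgeR and 1 by DESeq2 (Acot1). Of all genes, 0% were called by edgeR. At an unadjusted p under 0.05 were 3 of 9 genes, against 31.1% of all genes. Acot1 is among these 3, and nothing is read from it. Pdk4 differed by -1.98 (SE 0.78, edgeR, adjusted p = 0.126) and Acadm by -0.65 (SE 0.27, edgeR, adjusted p = 0.133). Without mouse 136, where 39.9% of all genes were called, Pdk4 was called at -2.42 (edgeR, adjusted p = 0.0067) and Acadm at -0.87 (edgeR, adjusted p = 0.00173). Acot1 and Acot3 bring that count to 4, and nothing is read from these, the first having chosen the set and the other having been kept by its WT PBS counts.

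The rest of the fat oxidation machinery was read from 10 lists that hold 98 other genes, of which 90 were tested. In WT BLM against WT PBS skin 16 were higher and 18 lower, with a median log2 fold change of 0.07. These are 37.8% of the 90, near the 34.0% of all genes called there, so the count is no result about fat oxidation genes. Among other acyl-CoA thioesterases, 1 of 10 tested genes was higher and 2 lower. Among partners and regulators of PPAR-alpha 4 of 12 were higher and 1 lower, in mitochondrial beta-oxidation 2 of 17 higher and 4 lower, and in peroxisomal oxidation 2 of 15 higher and 2 lower. Uptake and activation had 2 of 10 higher and 2 lower, the carnitine shuttle 1 of 7 each way, other targets of PPAR-alpha 2 of 10 each way, and the other kinases and phosphatases of pyruvate dehydrogenase 2 of 5 each way. Ketone body synthesis had 1 of 3 lower and omega-oxidation 1 of 1 tested lower.

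The higher genes with the smallest p included Acsl6, a long-chain acyl-CoA synthetase, at 3.81 (SE 0.56), Pdp1, a phosphatase that reactivates pyruvate dehydrogenase, at 1.08 (SE 0.21), Acadl at 0.63 (SE 0.14), Pdk2 at 1.28 (SE 0.29) and Phyh at 0.46 (SE 0.11). The 6 of the 18 lower genes with the smallest p were Acad9 at -0.71 (SE 0.13), Acaa2, the last thiolase of mitochondrial beta-oxidation, at -0.56 (SE 0.12), Vnn1, a pantetheinase, at -1.74 (SE 0.45), Them4 at -1.74 (SE 0.45), Crot, the peroxisomal carnitine octanoyltransferase, at -1.50 (SE 0.39) and Pdp2 at -1.21 (SE 0.34). All of those named had adjusted p values of 0.00405 to 0.0237 (edgeR) and WT groups without overlap. The count of 34 fell to between 9 and 19 without any 1 of the 6 WT mice. The share of all genes called in those fits is not given here, so the fall is not read as particular to these genes. Some markers of hair, sebaceous glands, muscle, macrophages and fibroblasts, counted beside Cpt1a, were called in the same comparison, and their part was not tested.

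In the other comparisons none of the 90 genes was called by edgeR. At an unadjusted p under 0.05 there were 29 genes (32.2%, against 20.4% of all genes) in KO PBS against WT PBS, 30 (33.3% against 20%) in KO BLM against KO PBS and 21 (23.3% against 16.6%) in KO BLM against WT BLM skin, and DESeq2 called 4, 7 and 10. The difference of the responses had 0 calls by edgeR, 37 genes (41.1%, against 31.1% of all genes) at an unadjusted p under 0.05 and 21 calls by DESeq2. The share of all genes that DESeq2 called is not given here, so nothing is read from its counts. The high and low values that follow are among the genes with a mean log2 CPM of 1 or more, and some genes below that level had larger values. In KO PBS against WT PBS skin the high values included that of Ucp3, a mitochondrial uncoupling protein of muscle, at 1.56 (SE 0.57), and the lowest were those of Them4 at -1.08 (SE 0.44) and Bdh1 at -1.05 (SE 0.48). With bleomycin in KO skin Acsl6 and Them5 had the highest values, 1.24 (SE 0.51) and 1.13 (SE 0.56), and Acaa1b was among the lowest at -1.47 (SE 0.47). Between the BLM groups the lowest were Acsl6 at -1.61 (SE 0.51) and Ppargc1a at -1.12 (SE 0.30), and the highest Acox2 at 1.37 (SE 0.36) and Bdh1 at 1.11 (SE 0.48). In the difference of the responses the lowest were Acsl6 at -2.57 (SE 0.73) and Fabp3 at -2.24 (SE 0.77), and the highest Bdh1 at 2.16 (SE 0.68) and Them4 at 1.82 (SE 0.63). Without mouse 136, 46 of the 90 genes (51.1%, against 36.7% of all genes) were called in KO PBS against WT PBS skin, 37 higher and 9 lower. The same fit called 20 (22.2% against 14%) in KO BLM against KO PBS, 11 (12.2% against 6.89%) in KO BLM against WT BLM skin and 43 (47.8% against 39.9%) in the difference.

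The neighbours of Acot1 on chromosome 12 were examined to see whether the pattern was shared along the locus. Within 500 kb of its start 45 genes are annotated by a unique symbol and 29 were tested. In KO BLM against WT BLM skin 0 of the 28 other than Acot1 were called by edgeR and 1 by DESeq2, where edgeR called 0.0928% of all genes. At an unadjusted p under 0.05 there were 4 of the 28 (14.3%, against 16.6% of all genes). In WT BLM against WT PBS skin 10 of the 28 were called (35.7%, near the 34.0% of all genes). Ptgr2 was higher at 0.40 (SE 0.13). The lower ones included Numb at -1.09 (SE 0.30), Dcaf4 at -0.90 (SE 0.25), Fam161b at -0.88 (SE 0.30) and Bbof1 at -0.86 (SE 0.23). Also lower were Riox1 at -0.82 (SE 0.26), Entpd5 at -0.43 (SE 0.14), Acot4, Acot5 and 4732463B04Rik. The last of these passed the filter on low counts only with its WT PBS counts, so nothing is read from its call. None of the 28 was called in KO PBS against WT PBS or in KO BLM against KO PBS skin by edgeR or DESeq2. At an unadjusted p under 0.05 there were 3 and 5 (10.7% and 17.9%, against 20.4% and 20% of all genes).

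Acot5, the thioesterase gene 59.8 kb from Acot1, had a low count in every mouse. WT mice had 12, 25 and 4 counts after PBS and 3, 2 and 3 after bleomycin, and KO mice had 7, 3 and 5 after PBS and 16, 25 and 16 after bleomycin. The KO BLM mice were above the WT BLM mice. Acot5 passed the filter on low counts only with its KO BLM counts, so no fold change or test that uses these mice is read. Of the 50-base windows of Acot5, 13.33% also occur in Acot1. The antisense 4732463B04Rik had 33, 41 and 50 counts in WT mice after PBS and 1, 0 and 3 after bleomycin, against 44, 1 and 2 and then 21, 4 and 8 in KO mice, so the 5 mice with the highest hair marker sums had the 5 highest counts. Other tested neighbours (Zfyve1, Rbm25, Papln, Gm26571, Acot2, Acot3, Acot6, Dnal1, Pnma1, Elmsan1, Gm5436, Zfp410, Gm47484, Coq6, Rnf113a2, Aldh6a1 and Lin52) were called in none of the 4 comparisons by edgeR.

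**Figure D4:**
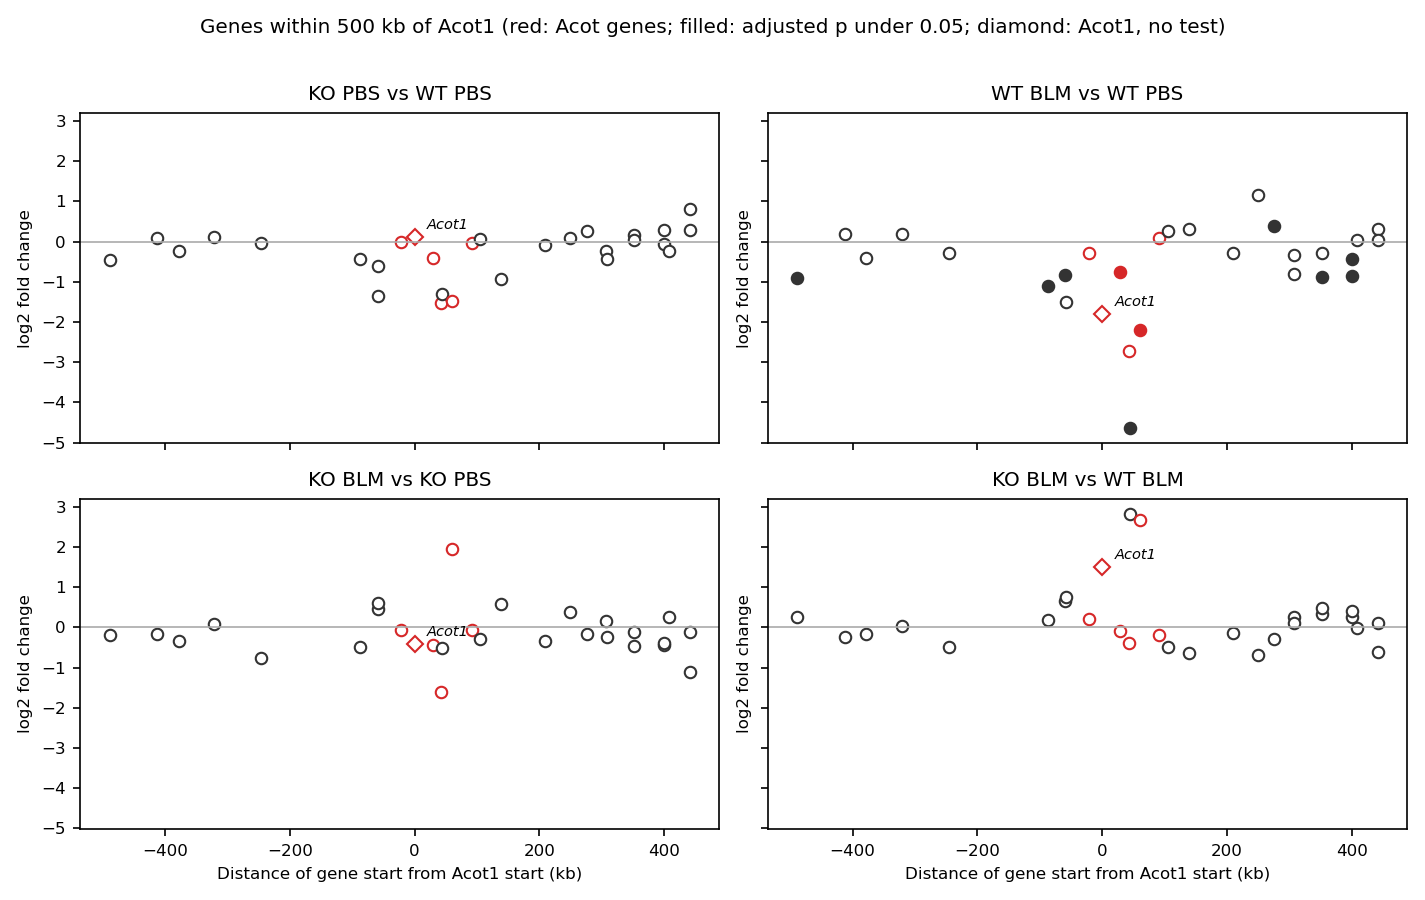
Log2 fold change of the 29 tested genes within 500 kb of the start of Acot1 against their distance from it in kb, in the 4 comparisons (red: Acot genes, filled: adjusted p under 0.05, diamond: Acot1, drawn without a test). In KO BLM against WT BLM skin Acot1 is at 1.49 and none of the 28 other points is filled.

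Likeness to Acot1 over the 12 mice was ranked among 13837 genes by Pearson correlation of log2 CPM, as a description. The genes most alike included Slc16a13 (r = 0.96), Tmem159 (0.95), Alad, an enzyme of heme synthesis (0.95), and Rab9 (0.95). The genes that ran most opposite were Dpy19l3 (r = -0.97), Cdk6 (-0.96) and Ripor1 (-0.95). All 12 mice enter as points, so the low WT BLM group weighs on each value. Within the set the coefficients with Acot1 were 0.67 for Cpt1a, 0.65 for Acot2, 0.49 for Ehhadh, 0.48 for Acot4, 0.22 for Ppara, -0.25 for Acadm and -0.54 for Pdk4.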

How the data were processed

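Skin RNA from 12 mice was sequenced. Per the study's methods the authors made stranded mRNA libraries and ran DESeq2 on raw expression measures. The deposited counts per gene were used here as raw counts. The submitters' processing notes name GRCm38.p6 and MultiQC 1.7, and the aligner and counting tool are not given in the sources used here. Members and lists were chosen with earlier results of these data known. Counts were normalized by TMM, filtered with filterByExpr (minimum 10 counts in the smaller group after scaling, 15 in total) and tested in edgeR 4.0.16 (R 4.3.3) with a quasi-likelihood model of 4 group means over all 12 mice, with Benjamini-Hochberg adjustment over 18311 genes at 0.05. Intervals are at 95%. The biological coefficient of variation was 34.9%, beside totals of 26473700 to 38890450 counts. An exact permutation test of 3 against 3 mice cannot go below a two-sided p of 0.1. The samples are separate mice by number. Simulated counts with known changes were used to test the fit. Named were the 9 members, in each comparison up to 6 called genes per direction of the other lists by p (else the 2 highest and 2 lowest whose mean log2 CPM was 1 or more), tested neighbours within 500 kb, and the 5 most and 3 least alike to Acot1. Levels per kb use merged GENCODE M21 exons. The alternatives were DESeq2 1.42.0, RLE normalization, no filter, a mean of 1 CPM, only the groups compared, each mouse left out, mice 136 and 141 left out, and Acot1 and Acot2 summed. Plots used matplotlib 3.10.9 under Python 3.11.15. Some genes that this rule named are not reported here.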

Additional observations from a re-analysis of the deposited data

How the results depend on the processing

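Of 803 log2 fold changes of the 9 genes recomputed under the alternatives, 736 kept their direction and side of the threshold, 34 passed it only under the alternative, 13 no longer passed it and 20 changed sign, and the causes were not tested. Without mice 136 and 141 the set had 3 calls in KO PBS against WT PBS, 6 in WT BLM against WT PBS, 3 in KO BLM against KO PBS and 4 in the difference of the responses. Of all genes, 40.9%, 49%, 22.3% and 38.6% were called there. Calls of Acot1 and Acot3 are among the counts of the set in this paragraph, and nothing is read from them. The 90 other fat oxidation genes had 50 (KO PBS against WT PBS), 28 (KO BLM against KO PBS), 8 (KO BLM against WT BLM, beside 4.36% of all genes) and 42 (difference). With DESeq2 the set had 1 call in KO BLM against KO PBS and 1 in the difference, and the other genes had 4, 7, 10 and 21 in the same order. The share of all genes called by DESeq2 is not given here, so nothing is read from these DESeq2 counts. The set had 5 calls in WT BLM against WT PBS with only these groups in the model, and 1 in the difference without a filter, where Acot4 in WT skin was also lost (edgeR, adjusted p = 0.0600). With each mouse left out, the calls of the set ranged over 0 to 3 (KO PBS against WT PBS), 1 to 6 (WT BLM against WT PBS), 0 to 2 (KO BLM against KO PBS), 1 to 1 (KO BLM against WT BLM) and 0 to 4 (difference), and those of the other genes over 0 to 46, 9 to 45, 0 to 20, 0 to 11 and 0 to 43, with every upper end above 1 reached without KO PBS mouse 136. Of the fits with a mouse left out, only that without mouse 136 has its share of all genes given here. The other counts are therefore not read as particular to these genes. The sign changes were all in values that were not called with all mice. In KO PBS against WT PBS, Acot2 was at 0.00511 without a filter, 0.00418 with a mean of 1 CPM, 0.0926 when summed with Acot1 and -0.0745 to 0.17 with a mouse left out, and Cpt1a at -0.38 to 0.0559. In WT BLM against WT PBS, Ppara was at -0.39 to 0.20. With bleomycin in KO skin, Acot2 was at -0.15 to 0.0172, Acot3 at -2.76 to 3.56 (2.37 without mice 136 and 141) and Pdk4 at -0.96 to 0.0670. Between the BLM groups, Acot3 was at -1.54 to 0.24, Acot4 at -0.21 to 0.0852 and Ehhadh at -0.16 to 0.35 (-0.0571 without mice 136 and 141). In the difference, Acot3 was at -0.0395 to 6.29, a range set by mice with 0 counts. No paired analysis was possible, because the groups share no mouse and the labels do not say which mice were littermates. At 3 mice a group and a biological coefficient of variation of 34.9%, small differences were not detectable, and for Acot3 the counts themselves limit what can be seen.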
